A study of Caenorhabditis elegans with 18 samples.

Results

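The vitellogenin genes of Caenorhabditis elegans, vit-1 to vit-6, were taken by name from the table of reads per gene, and all 6 were found among the 26709 genes listed. They encode yolk proteins and are known as some of the most abundant RNAs of the adult hermaphrodite intestine. The reads on them were therefore followed as a measure of somatic RNA in libraries made to capture germline RNA bound by FBF-1 and FBF-2.

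FBF-1 and FBF-2 are nearly identical PUF proteins that bind RNA and act in germline stem cells. The assay, iCLIP, uses UV light on living animals to bind RNA covalently to the proteins it touches, after which the protein is pulled down and the RNA fragments that stay with it are sequenced. All animals were XX adults with a hermaphroditic soma, grown to early adulthood at 25°. The proteins were pulled down by a FLAG tag, from a transgene inserted once in a deletion background: 3xFLAG::FBF-1 in fbf-1(ok91) or 3xFLAG::FBF-2 in fbf-2(q738). These strains had an oogenic germline. The spermatogenic strains also carried the temperature-sensitive gain-of-function allele fem-3(q22), which makes the germline produce only sperm. The 18 libraries comprised 3 biological replicates for each protein and germline gender, plus 3 oogenic and 3 spermatogenic controls in which the FLAG antibody was left out. The labels give the gender of the controls and not which tagged strain they came from. Whole animals were lysed, so fewer intestinal cells and less vitellogenin RNA per cell cannot be told apart.

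Yolk proteins are made in the intestine, secreted into the body cavity and taken up by growing oocytes through the receptor RME-2. vit-1 and vit-2 encode one class of large yolk protein, vit-3, vit-4 and vit-5 encode a second class, and vit-6 encodes a precursor that is cleaved into a pair of smaller yolk proteins. Transcription starts around the transition to adulthood. An oogenic germline takes the yolk up, while a germline that makes only sperm has no oocytes to receive it.

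In the WBcel235 annotation (Ensembl release 115), 5 of the genes are on chromosome X and vit-6 is on chromosome IV, and all 6 are protein coding. vit-1 spans 7727889 to 7733168 on the plus strand of X, with 5 exons. vit-2 spans 5101042 to 5106169 on the plus strand of X, with 5 exons, and its exons overlap those of C42D8.9 on the opposite strand. vit-3 spans 3567355 to 3572549 and vit-4 spans 3558769 to 3563965, both on the minus strand of X with 6 exons, and each overlaps a noncoding RNA gene on the opposite strand. vit-5 spans 3403471 to 3408603 on the plus strand of X with 6 exons, and vit-6 spans 8261157 to 8266459 on the plus strand of IV with 5 exons. vit-3 and vit-4 are therefore close neighbors in the same orientation. Exon lengths differed little, from 4870 bases for vit-5 to 5088 for vit-1, and the 3′ UTRs had between 48 and 225 bases. vit-3, vit-4 and vit-5 are near copies of each other, and vit-1 and vit-2 are close relatives. The study's methods state that reads matching more than one place were removed. Where this was done, the counts of these 5 genes depend on how much of each could be mapped uniquely. The strand setting of the counting is not given in the sources used here.

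Depth differed between libraries. FBF libraries held 18749 to 1833483 counts on genes and controls held 59621 to 283777. FBF-1 replicate 1 from oogenic germlines stood apart as the smallest, with 137 counts on the 6 vitellogenin genes. Genes for rRNA, tRNA and mitochondrial RNA took 14.4% to 18.3% of spermatogenic FBF libraries, 16.2% to 43.1% of oogenic FBF libraries, 38.3% to 43.9% of spermatogenic controls and 50.9% to 55.1% of oogenic controls. Spermatogenic FBF libraries and oogenic controls were sequenced in lane 1, oogenic FBF libraries in lane 2 and spermatogenic controls alone in lane 3. Lane 3 and the spermatogenic control group therefore cannot be told apart. In both comparisons of FBF with control and both comparisons of the genders, the groups were in different lanes. Lane cannot be told apart from antibody or gender in any of them. For tests, FBF-1 and FBF-2 libraries were added up in the pairs that the study's methods list, which made 3 combined FBF replicates of each gender. The counts were summed as they were, so the proteins weigh differently in them. Oogenic combined replicate 1 held 18749 counts from FBF-1 and 441192 from FBF-2, and replicate 3 held 1833483 and 510852. SDs over the combined replicates therefore also cover differing mixtures of both proteins.

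The 6 vitellogenin RNAs together took a smaller share of the reads in every FBF library than in any control. In oogenic germlines their share was 0.989% ± 0.0865 of the counts on genes in the combined FBF replicates and 1.60% ± 0.0436 in the controls (SD, n = 3 each). In spermatogenic germlines the share was 0.932% ± 0.109 with FBF and 1.58% ± 0.0218 without antibody (SD, n = 3 each). The controls of the genders were thus close in their summed share over all genes, and the ratio of FBF to control was 0.620 in oogenic and 0.591 in spermatogenic germlines. The controls held more rRNA and tRNA, and the contrast was wider when rRNA, tRNA and mitochondrial genes were left out of the totals. Their share was then 1.38% against 3.41% in oogenic and 1.11% against 2.66% in spermatogenic germlines, which are ratios of 0.405 and 0.418. No p-value is given for the summed share.

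Among single libraries, the share ran from 0.646% to 1.23% with antibody and from 1.55% to 1.64% without. The smallest library, with 0.731%, had a 95% Wilson interval of 0.618% to 0.863%, which covers counting error only and does not reach the controls. In spermatogenic germlines the 3 FBF-1 libraries (1.02% to 1.23%) lay above the 3 FBF-2 libraries (0.646% to 0.864%), while in oogenic germlines FBF-1 (0.731% to 1.11%) and FBF-2 (0.911% to 0.991%) overlapped. Each protein was in its own strain, so protein and strain cannot be told apart.

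**Figure D1:**
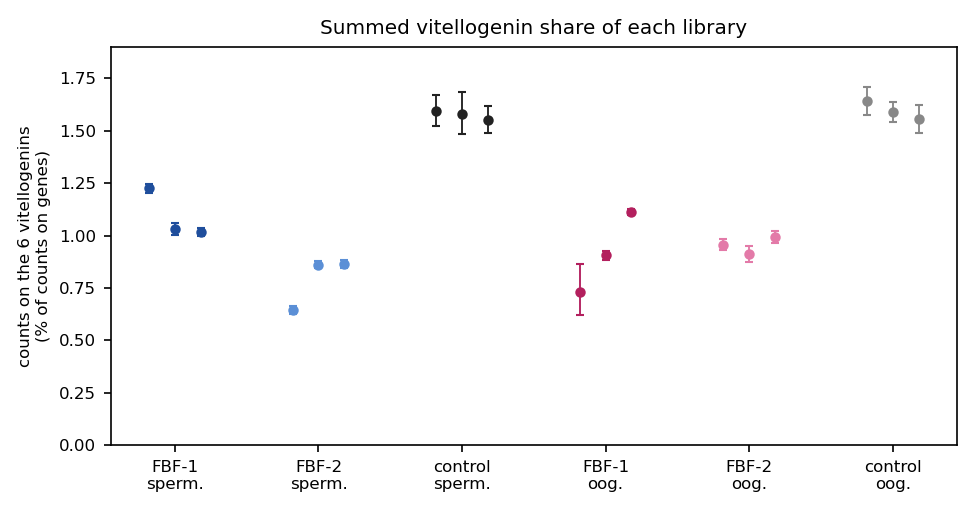
Share of each library's counts on genes that fell on vit-1 to vit-6 together (y axis, percent) in 18 libraries grouped by protein or control and germline gender (x axis), with 95% Wilson intervals that cover counting error only. The 6 controls lie between 1.55% and 1.64% and the 12 FBF libraries between 0.646% and 1.23%.

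Levels were compared between the genes as RPM, the counts scaled to a total of 1000000 counts on genes, divided by exon length in kb. In oogenic controls vit-6 was highest with 829 ± 19.6 RPM per kb, followed by vit-2 with 743 ± 52.7, vit-5 with 499 ± 20.5, vit-3 with 445 ± 26.1, vit-1 with 349 ± 15.4 and vit-4 with 344 ± 22.6 (SD, n = 3). Of these neighbors in the order, vit-1 and vit-4 did not differ beyond their spread. In spermatogenic controls the order was vit-6 (1322 ± 49.1), vit-2 (1001 ± 72.3), vit-5 (309 ± 13.9), vit-1 (274 ± 31.8), vit-3 (132 ± 20.8) and vit-4 (118 ± 36.3, all RPM per kb, SD, n = 3), and vit-5 with vit-1 and vit-3 with vit-4 overlapped. Within each spermatogenic control library, however, vit-5 was above vit-1. By these levels the mixture of the oogenic controls was more even than that of the spermatogenic ones.

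With FBF vit-6, vit-2, vit-5 and vit-3 came in that order in both genders. In oogenic germlines the combined FBF replicates had 544 ± 57.7 RPM per kb for vit-6, 476 ± 47.6 for vit-2, 299 ± 25.7 for vit-5, 265 ± 18.8 for vit-3, 207 ± 7.20 for vit-4 and 197 ± 26.3 for vit-1 (SD, n = 3). In spermatogenic germlines they had 563 ± 40.3 for vit-6, 495 ± 34.9 for vit-2, 250 ± 50.7 for vit-5, 220 ± 38.9 for vit-3, 177 ± 24.1 for vit-1 and 168 ± 33.4 for vit-4 (RPM per kb, SD, n = 3). In both genders the replicates overlapped between vit-6 and vit-2, between vit-5 and vit-3 and between vit-1 and vit-4, and in spermatogenic germlines also between vit-3 and vit-1. Within every combined replicate, however, vit-6 was above vit-2 and vit-5 above vit-3, and vit-3 was above vit-1.

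The vitellogenins ranked near the top of the controls. Among 17955 protein-coding genes ordered by mean RPM per kb, vit-6 was number 17 in spermatogenic and 24 in oogenic controls, and vit-2 was number 31 and 30. With FBF, vit-6 ranked between 51 and 100 and vit-2 between 81 and 138 in the 4 groups of single-protein libraries. vit-3 and vit-4 were numbers 79 and 112 in oogenic controls but 572 and 633 in spermatogenic controls. With FBF, vit-3 ranked between 245 and 607 and vit-4 between 363 and 934 in the 4 groups of single-protein libraries. Such low ranks of vit-3 and vit-4 were therefore not particular to the spermatogenic controls.

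**Figure D2:**
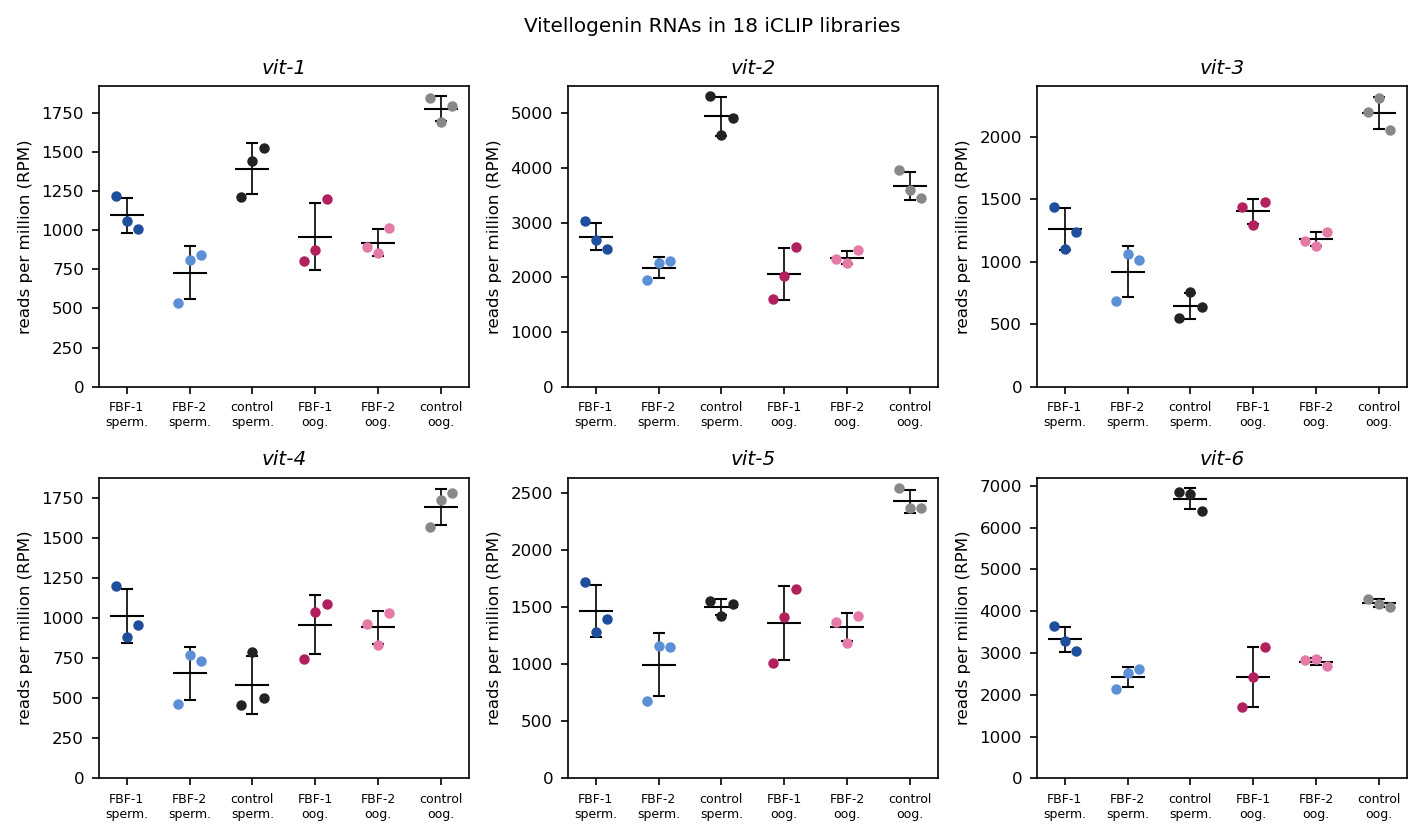
Level of each vitellogenin RNA in RPM (y axes, linear and from 0) in 18 libraries grouped by protein or control and germline gender (x axes); points are single libraries and lines are the group mean with its SD (n = 3). Oogenic controls are above all oogenic FBF libraries for each gene, while spermatogenic controls are the highest group for vit-2 and vit-6 and have the lowest mean for vit-3.

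In oogenic germlines all 6 vitellogenin RNAs were lower with FBF than without antibody, by much the same factor. vit-6 had 2659, 2519 and 3080 RPM in the combined FBF replicates and 4301, 4183 and 4104 RPM in the controls. vit-2, the other strong member, had 2459, 2078 and 2506 RPM with FBF and 3954, 3591 and 3450 RPM in the controls. vit-3 had 1248, 1253 and 1411 RPM with FBF and 2200, 2312 and 2056 RPM in the controls. In each of these 3 genes every FBF replicate was below every control.

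vit-4 had 1022, 989 and 1060 RPM with FBF against 1570, 1737 and 1783 in the oogenic controls. vit-1 ranged from 866 to 1134 RPM against 1691 to 1846, and vit-5 from 1362 to 1598 against 2372 to 2547. The groups did not overlap for any of the 6 genes. The FBF to control ratio of the mean RPM lay between 0.564 for vit-1 and 0.656 for vit-6.

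edgeR's quasi-likelihood test with library-size scaling put the oogenic log2 fold changes between −0.82 (SE 0.14, adjusted p = 2.0e-05) for vit-1 and −0.61 (SE 0.13, adjusted p = 3.0e-04) for vit-6. The others were −0.75 for vit-3, −0.74 for vit-5, −0.73 for vit-4 and −0.64 for vit-2, with SEs of 0.13 and adjusted p-values from 2.8e-05 to 1.8e-04 (Benjamini-Hochberg over 6424 RNAs). Calling an RNA required more than a 2-fold change along with an adjusted p under 0.01, so 0 of 6 were called. All 6 were lower at an unadjusted p under 0.05, against 470 lower and 3100 higher of the 6424 RNAs tested. Of all RNAs tested, 29.6% were called higher and 1.7% lower, and the median log2 fold change was 0.90. Relative to that median the vitellogenins lay at −1.73 to −1.51 on the log2 scale, and 4.86% to 8.69% of the tested RNAs had a lower fold change than any one of them. The groups of 55.8% of the tested RNAs did not overlap.

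The scaling decided whether these changes passed the fold minimum. With TMM normalization (trimmed mean of M values), with totals that left out rRNA, tRNA and mitochondrial genes, or with DESeq2, 6 of 6 were called lower, at log2 fold changes between −1.53 and −1.22, where 12.7%, 10.2% and 12.5% of all RNAs tested were called lower. The same scalings moved the median of all RNAs from 0.90 to 0.17, 0.30 and 0.13, and the share of called RNAs that were higher from 94.6% to 54.8%, 63.4% and 49.6%. Relative to the median, the values of the 6 genes were between −1.74 and −1.44 under these alternatives.

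In spermatogenic germlines the vitellogenins did not move together. vit-2 and vit-6 were lower with FBF than in the controls by over 2-fold, vit-1 and vit-5 had lower values by less, and vit-3 and vit-4 had higher values with FBF. vit-6 had 2644, 3052 and 2856 RPM in the combined FBF replicates and 6860, 6810 and 6407 RPM in the controls. vit-2 had 2275, 2619 and 2427 RPM with FBF and 5308, 4596 and 4917 RPM in the controls. For both, the highest FBF replicate was far under the lowest control.

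vit-3 had 868, 1236 and 1145 RPM with FBF and 551, 755 and 639 RPM in the controls, from only 60, 45 and 93 counts. Here the order was turned, with every FBF replicate above every control. vit-4 had 647, 972 and 862 RPM with FBF and 459, 788 and 501 RPM in the controls, from 50, 47 and 73 counts, and these groups overlapped. vit-1 ranged from 764 to 1002 RPM with FBF and from 1212 to 1524 in the controls. vit-5 was closer, at 944 to 1422 RPM with FBF against 1426 to 1552, and its groups were separated by a narrow gap.

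Of the 6 RNAs, edgeR called 2 lower in the spermatogenic comparison, vit-6 (log2 fold change −1.23, SE 0.12, adjusted p = 8.3e-24) and vit-2 (−1.02, SE 0.12, adjusted p = 1.1e-16), and 0 higher. The change of vit-1 (−0.63, SE 0.13, adjusted p = 7.0e-06) passed the p threshold but not the fold minimum, although it was called (−1.12, adjusted p = 1.2e-16) when totals left out rRNA, tRNA and mitochondrial genes, which made 3 of 6 called. The changes of vit-3 (0.78, SE 0.15, adjusted p = 1.0e-06) and vit-4 (0.60, SE 0.15, adjusted p = 4.2e-04) also passed only the p threshold, in the other direction. At an unadjusted p under 0.05 these 2 were higher and 4 were lower, against 3422 higher and 1008 lower of the 8269 RNAs tested. DESeq2 called 0 of the 6 higher. For vit-5 the log2 fold change was −0.31 (SE 0.13, adjusted p = 0.038). Of 8269 RNAs tested, 5.78% were called lower and 29.2% higher, with a median log2 fold change of 0.71. In RPM over all genes, groups did not overlap for 5 of the 6 vitellogenins and for 59.4% of all RNAs tested.

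Against the median of all RNAs, vit-6 lay at −1.94, vit-2 at −1.74, vit-1 at −1.34 and vit-5 at −1.02 on the log2 scale, while vit-3 (0.065) and vit-4 (−0.12) lay at the middle of the tested RNAs. TMM, totals without rRNA, tRNA and mitochondrial genes, and DESeq2 moved the median to 0.36, 0.23 and 0.40 and the share of called RNAs that were higher from 83.5% to 69.1%, 64.1% and 63.3%. The fitted change of vit-3 was then 0.43, 0.29 and 0.45 and that of vit-4 was 0.24, 0.11 and 0.24, and the ratio of mean levels for vit-4 fell from 1.42 to 0.993 without the rRNA, tRNA and mitochondrial genes. The call of vit-2 sat close to the fold minimum. It was lost without FBF replicate 1 (−0.98), without control replicate 1 (−0.97) and with FBF-1 libraries alone (−0.85), which left 1 of 6 called in each case.

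**Figure D3:**
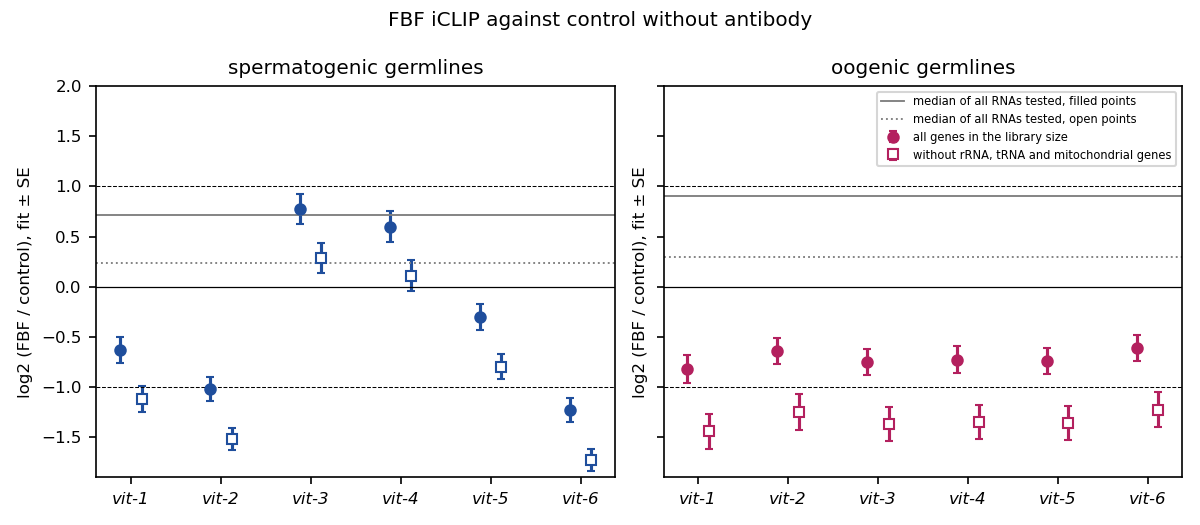
Log2 fold change of FBF over control for each vitellogenin RNA (points, edgeR fit with its SE as bars) in spermatogenic and oogenic germlines, with all genes in the library size (filled) or without rRNA, tRNA and mitochondrial genes (open); grey lines are the medians of all RNAs tested and dashed lines mark a 2-fold change. The 6 oogenic values lie together at −0.82 to −0.61, while the spermatogenic values spread from −1.23 for vit-6 to 0.78 for vit-3.

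Before clustering RNAs, the study took the mean of the controls away from the RPM of each FBF dataset. Its methods do not say whether these were controls of the same gender only. Here the mean of the controls of the same gender was subtracted. All 6 vitellogenins were then negative in oogenic germlines, from −673 RPM for vit-4 to −1443 RPM for vit-6. In spermatogenic germlines vit-6 (−3842 RPM), vit-2 (−2500), vit-1 (−493) and vit-5 (−283) were negative. vit-3 and vit-4 kept positive values, 435 RPM for vit-3 (220 to 588 over the 3 FBF replicates) and 244 RPM for vit-4 (64.5 to 389). Their means with FBF there, 1083 and 827 RPM, were above the spermatogenic control means (648 and 583 RPM). They were below the oogenic control means (2189 and 1697 RPM), so the sign depends on which controls are averaged.

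The controls were then compared with each other. vit-3 and vit-4 were lower in spermatogenic than in oogenic controls, by log2 fold changes of −2.06 (SE 0.16, adjusted p = 1.5e-14) and −1.89 (SE 0.18, adjusted p = 4.6e-12), and these 2 were called of 6 with edgeR and TMM. For vit-3 the levels were 551 to 755 RPM in spermatogenic and 2056 to 2312 RPM in oogenic controls, and for vit-4 they were 459 to 788 and 1570 to 1783 RPM. vit-5 (−0.96, SE 0.14, adjusted p = 2.0e-07) and vit-1 (−0.62, SE 0.14, adjusted p = 7.6e-04) were also lower, by less than 2-fold. The change of vit-5 passed the fold minimum in totals without rRNA, tRNA and mitochondrial genes (−1.03), with no count minimum (−1.08) and without oogenic control replicate 2 (−1.01). vit-2 (0.16, SE 0.13, adjusted p = 0.43) and vit-6 (0.40, SE 0.12, adjusted p = 0.015) had values in the other direction and were not called. The background was 6.73% of 3137 RNAs called lower and 6.28% called higher, the median was −0.023, and with library-size scaling the median was 0.26 and the share of called RNAs that were higher went from 48.3% to 60.6%. Groups did not overlap for 6 of 6 vitellogenins and for 35.6% of RNAs tested.

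In the FBF libraries the same contrast of genders was small for every vitellogenin. vit-3 ranged from 868 to 1236 RPM in spermatogenic and from 1248 to 1411 RPM in oogenic FBF replicates, and vit-4 from 647 to 972 and from 989 to 1060 RPM. These 2 were the members whose groups did not overlap, against 43.9% of 7501 RNAs tested. Log2 fold changes were −0.57 for vit-4 (SE 0.18, adjusted p = 0.020), −0.53 for vit-3 (SE 0.18, adjusted p = 0.028), −0.52 for vit-5 (SE 0.18, adjusted p = 0.040), −0.41 for vit-1, −0.22 for vit-2 and −0.21 for vit-6 (adjusted p = 0.079 to 0.45). edgeR called 0 of 6 and so did DESeq2, against a background of 10.2% called higher and 4.71% called lower. At an unadjusted p under 0.05, 4 of the 6 were lower, and so were 1491 of the 7501 RNAs tested, with 1577 higher. With library-size scaling vit-2 (0.056) and vit-6 (0.050) turned to the other direction, and the median of all RNAs moved from −0.0087 to 0.19.

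Whether the FBF to control ratio differed between genders was tested with an antibody by gender term, with totals that left out rRNA, tRNA and mitochondrial genes. The ratio was higher in spermatogenic germlines for vit-3, by 1.65 on the log2 scale (SE 0.23, adjusted p = 5.3e-08), and for vit-4, by 1.43 (SE 0.25, adjusted p = 9.6e-06). For these, 2 of 6 were called at an adjusted p under 0.01, against 1.04% of 7305 RNAs called higher and 0.862% called lower, with a median of 0.18. The term was 0.56 for vit-5 (SE 0.22, adjusted p = 0.16), 0.32 for vit-1 (SE 0.22, adjusted p = 0.54), −0.26 for vit-2 (SE 0.21, adjusted p = 0.60) and −0.50 for vit-6 (SE 0.21, adjusted p = 0.20). A call of vit-6 (−0.57, adjusted p = 0.0054) was added by DESeq2. With controls of the other gender, an alternative chosen after the data were seen, vit-3 and vit-4 turned to −1.02 and −1.03 in spermatogenic FBF and to 1.03 and 0.86 in oogenic FBF. The calls of vit-2 (−0.58) and vit-6 (−0.56) in spermatogenic germlines ended there.

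Ratios within a library do not depend on its depth or on how much rRNA it holds, so each vitellogenin was also expressed relative to vit-6, per exon base. vit-3 was at 0.0826 to 0.114 of vit-6 in the 3 spermatogenic controls and at 0.328 to 0.868 in the other 15 libraries. vit-4 was at 0.0687 to 0.119 and at 0.222 to 0.449, and vit-5 at 0.218 to 0.249 and at 0.328 to 0.617. vit-1 (0.176 to 0.237 against 0.247 to 0.467) and vit-2 (0.693 to 0.794 against 0.814 to 0.962) were also lower in these controls. The 3 spermatogenic controls lay outside the range of the other 15 libraries for all 5 ratios, by a wide margin for vit-3 and vit-4 and by a narrow one for vit-1 and vit-2.

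**Figure D4:**
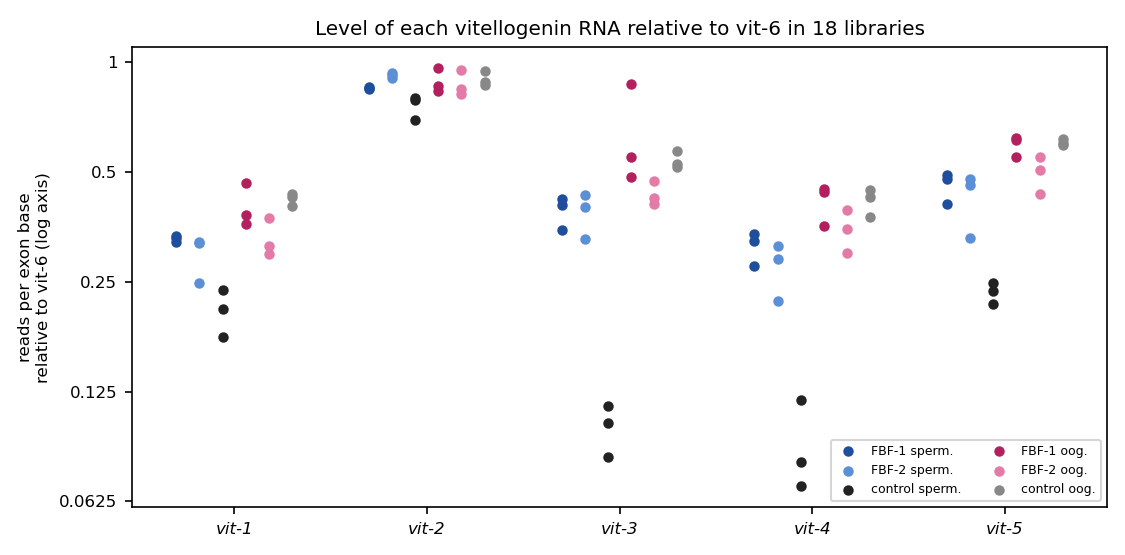
Reads per exon base of vit-1 to vit-5 relative to vit-6 in the same library (y axis, log scale) for 18 libraries colored by group. The 3 spermatogenic controls are the lowest for each gene, and vit-3 is at 0.0826 to 0.114 of vit-6 in them against 0.328 to 0.868 in the other 15.

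As shares of all vitellogenin counts, vit-3 made up 3.46% to 4.77% in spermatogenic controls, 13.2% to 14.5% in oogenic controls and 10.7% to 13.8% in the combined FBF replicates. vit-6 made up 41.3% to 43.1% in spermatogenic controls, 26.2% to 26.4% in oogenic controls and 27.1% to 32.5% in the combined FBF replicates. The summed shares of the controls, near equal over all genes, therefore held different mixtures of the 6 RNAs. Without rRNA, tRNA and mitochondrial genes the summed shares did not overlap, at 2.58% to 2.82% in spermatogenic and 3.34% to 3.46% in oogenic controls.

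Histone genes and a pair of rRNA genes, each present in near copies, also took few reads in the spermatogenic controls, while tRNA genes, which exist in many copies, took more. The 69 histone genes took 0.0436% ± 0.00519 of the counts in these controls and between 0.205% and 0.312% on average in the other 5 groups of libraries, and that pair, rrn-1.1 with rrn-1.2, had 0 counts against averages of 4.40% to 14.8%. A count of 0 allows a share of up to 0.00206% to 0.00503% in these 3 libraries. Mitochondrial genes were high there, with 8.38% ± 0.493 against 1.01% to 2.98% elsewhere, and so were tRNA genes, with 7.26% ± 1.54 against 1.96% to 4.82% (SD, n = 3 libraries). These families were chosen after their values were seen, and their part in the vit-3 and vit-4 difference was not tested. Whether reads that match several places were handled alike in all lanes is not given in the sources used here, which limits what the control values of vit-3 and vit-4, and the gender term that rests on them, can show.

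Over the 18 libraries the levels of the 6 RNAs, as log2(RPM + 1), fell into pairs. Pearson's r was 0.986 between vit-2 and vit-6, 0.941 between vit-3 and vit-4 and 0.926 between vit-1 and vit-5. Between vit-3 and vit-6 r was −0.26, and between vit-3 and vit-2 it was −0.19. These are descriptions over libraries that share groups and lanes. The genes most like the mean of the 6, of 4571 genes that averaged 20 or more counts, were mig-6, which encodes an extracellular matrix protein (r = 0.883), and trap-2 (0.851). They were followed by the cuticle collagen col-178 (0.837), the pseudogene Y73B6A.6 (0.826), the RNA-binding protein gene msi-1 (0.819), col-8 (0.807), K08D12.6 (0.801), col-143 (0.80), inos-1 (0.797) and idhb-1 (0.779). Without the smallest library 7 of these 10 remained among the 10 highest, and dig-1, which encodes a large matrix protein, became the first (0.939).

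The vitellogenins were set beside lists of genes of other somatic tissues and of the germline. As background, edgeR called 5.78% of all RNAs lower and 29.2% higher in spermatogenic and 1.7% and 29.6% in oogenic germlines. DESeq2 called 882 of 8269 RNAs lower in spermatogenic and 804 of 6424 in oogenic germlines. Of 20 other intestinal genes, 12 could be tested in spermatogenic germlines, where 2 were called lower, 0 higher and the median log2 fold change was −0.48, and 9 in oogenic germlines, where 0 were called and the median was −0.50. At an unadjusted p under 0.05, 1 was higher and 3 were lower in spermatogenic and 3 were lower in oogenic germlines, and DESeq2 called 3 and 6 lower. The 2 called were the cathepsin protease genes asp-1 (−1.09, SE 0.15, adjusted p = 2.3e-12), the intestinal gene with the most reads over the 6 controls, and cpr-1 (−1.59, SE 0.20, adjusted p = 1.8e-14). Not all intestinal genes were lower. In spermatogenic germlines ifb-2 (1.61, adjusted p = 0.032), pept-1 (1.34), spl-1 (0.59) and act-5 (0.23) had higher values with FBF. In oogenic germlines mtl-1 (1.60) and spl-1 (0.81) did, and the other intestinal genes tested had lower values in each gender. Together the 20 genes summed to 1348 RPM with FBF and 2137 RPM without antibody in spermatogenic, and 1106 and 1464 RPM in oogenic germlines, far under the vitellogenin sums of 9321 and 15760 RPM and of 9886 and 15954 RPM. The intestinal regulator elt-2 had 2, 0 and 1 counts in the spermatogenic controls and 0, 0 and 1 in the oogenic ones. ftn-1 and lipl-4 were at 0 in all controls, which allows up to 10.6 to 50.3 RPM in a library. Only 7 of the 20 genes averaged at least 5 counts over the controls. Between the controls, 1 of these 7 was called, cpr-1, which was higher in the spermatogenic ones (1.19, adjusted p = 0.0011) and which DESeq2 did not call, and the median of the 7 was 0.014. Among all 3137 RNAs tested there, 6.28% were called higher and 6.73% lower.

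Most muscle RNAs also had lower values with FBF. All 12 body-wall and pharynx muscle genes were tested, with a median log2 fold change of −0.51 in spermatogenic germlines, where 4 were called lower (myo-1, lev-11, unc-27 and mup-2, −1.28 to −1.09) and 0 higher. The median was −0.58 in oogenic germlines, where edgeR called 0, 10 were lower at an unadjusted p under 0.05 and DESeq2 called 12 lower. Over all RNAs, edgeR called 5.78% lower in spermatogenic and 1.7% in oogenic germlines. DESeq2 called 804 of all 6424 RNAs lower in the oogenic ones. The body-wall myosin gene unc-54 had 2527 RPM with FBF and 3625 RPM without antibody in spermatogenic (log2 fold change −0.53, adjusted p = 4.9e-05) and 1918 and 3193 RPM in oogenic germlines (−0.74, adjusted p = 1.9e-05). The vitellogenin medians were −0.47 and −0.73. Between the controls, edgeR and DESeq2 called 0 of the 12 muscle genes. At an unadjusted p under 0.05, 4 were higher and 0 lower, against 449 higher and 468 lower of the 3137 RNAs tested. There unc-54 differed by −0.091 (adjusted p = 0.70), where vit-3 differed by −2.06.

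Of 10 cuticle and hypodermis genes only 4 and 1 had enough reads. In spermatogenic germlines 0 of 4 were called, with 1 higher and 1 lower at an unadjusted p under 0.05, 0 called by DESeq2 and a median of 0.84. The adult collagen col-19 was called lower in oogenic germlines (log2 fold change −1.03, SE 0.16, adjusted p = 3.7e-06), where it was the 1 gene tested and 1.7% of all RNAs were called lower. Genes that FBF is known to bind moved the other way. Of 15 established targets 14 were called higher in spermatogenic and 13 of 14 in oogenic germlines, against 29.2% and 29.6% of all RNAs. Their medians were 4.37 and 3.43, and their summed RPM was 12074 against 905 and 12970 against 1096. egl-4, an FBF target known from neurons, took the most reads of this list over the 6 controls and had a log2 fold change of 0.051 (adjusted p = 0.84) and 0.25 (adjusted p = 0.31).

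**Figure D5:**
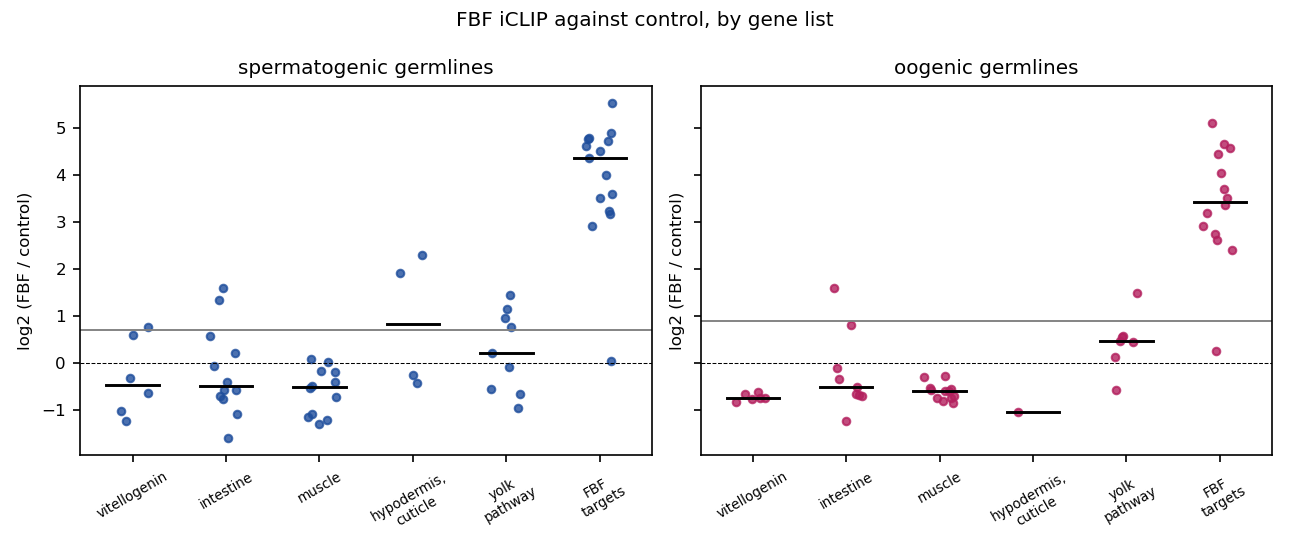
Log2 fold change of FBF over control (y axis, edgeR with library-size scaling) for the tested genes of 6 lists (points, spread sideways for legibility) with the list median (black bar) in spermatogenic and oogenic germlines; the grey line is the median of all RNAs tested, 0.71 and 0.90. Vitellogenin medians of −0.47 and −0.73 lie beside those of intestine and muscle genes, while established FBF targets have medians of 4.37 and 3.43.

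Among gametic genes, 10 of 14 oocyte genes were called higher with FBF and 2 lower in spermatogenic germlines (median 2.43), and 7 higher and 0 lower in oogenic germlines (median 1.44, with 2 lower at an unadjusted p under 0.05 and 2 by DESeq2). The background was 29.2% of all RNAs called higher and 5.78% lower in spermatogenic, and 29.6% and 1.7% in oogenic germlines. The 2 oocyte genes that went the other way, perm-4 (−1.65, adjusted p = 4.3e-32) and perm-2 (−1.59, adjusted p = 4.3e-25), encode eggshell proteins, and perm-4 was the oocyte gene with the most reads in the controls. Of 12 sperm genes 11 were tested in spermatogenic germlines, where edgeR and DESeq2 called 0, 1 was higher at an unadjusted p under 0.05 and the median was 0.23. Their member with the most reads in the controls, ssp-16, had 119 RPM with FBF and 124 RPM without antibody. The sperm genes summed to 595 RPM in spermatogenic and 26.1 RPM in oogenic controls, and the oocyte genes to 2441 and 3892 RPM. Most of the oocyte sum in spermatogenic controls came from perm-4 (1184 RPM against 706 in oogenic controls, log2 fold change 0.46, adjusted p = 0.040) and perm-2 (721 against 513 RPM, 0.22, adjusted p = 0.43), while 10 of the 13 oocyte genes tested between the controls were called lower in spermatogenic ones, against 6.73% of all RNAs tested there.

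The genes that act on yolk were followed as a list of 12. The shares over all RNAs were 29.2% called higher and 5.78% lower in spermatogenic, and 29.6% and 1.7% in oogenic germlines. Of 9 tested in spermatogenic germlines 1 was called higher with FBF and 0 lower (median 0.23, with 3 higher and 0 lower at an unadjusted p under 0.05, and 0 lower by DESeq2), and of 7 tested in oogenic germlines 1 was called higher and 0 lower (median 0.48, with 2 higher and 0 lower at an unadjusted p under 0.05, and 0 called by DESeq2). That gene was daf-16, the transcription factor of the insulin pathway, with 691 ± 43.5 RPM against 238 ± 76.1 in spermatogenic (log2 fold change 1.45, SE 0.18, adjusted p = 6.9e-14) and 621 ± 11.7 RPM against 224 ± 34.7 in oogenic germlines (1.49, SE 0.19, adjusted p = 2.9e-07; SD, n = 3). A lower fold change than that of daf-16 was found in 66.1% of tested RNAs in spermatogenic and 68.2% in oogenic germlines. daf-2, the receptor of the insulin pathway, had log2 fold changes of −0.086 (adjusted p = 0.86) and 0.58 (adjusted p = 0.14).

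rme-2, which encodes the yolk receptor and also stands in the oocyte list, had 87.9 RPM with FBF and 46.6 RPM without antibody in spermatogenic and 258 and 176 RPM in oogenic germlines. It was lower in spermatogenic animals in the FBF libraries (−1.80, SE 0.14, adjusted p = 5.6e-09) and in the controls (−2.24, SE 0.36, adjusted p = 2.9e-06), where vit-2 and vit-6 were not called. The endocytic genes rme-1 (0.23 and 0.48) and rme-8 (0.78 and 0.45) were not called over the controls in either gender. mab-3, known to repress the vitellogenins in males, was higher in spermatogenic than in oogenic FBF libraries (3.96, SE 0.40, adjusted p = 2.0e-07), with 40, 59 and 55 counts against 0, 2 and 4. Against the spermatogenic controls its log2 fold change was 1.16 (adjusted p = 0.16).

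The remaining genes of the list gave few reads. The vitellogenin activators unc-62 (−0.54 and 0.13) and lin-29 (−0.94 and −0.57) and the lipid transfer gene dsc-4 (−0.65, tested in spermatogenic germlines only) were not called over the controls. ceh-60, pqm-1 and sma-3 fell under the count minimum, with mean levels of 2.14 to 22.6 RPM in the 4 groups, so a difference in them was not detectable at this depth.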

How the data were processed

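The deposited values are raw counts, reads of each of 18 iCLIP libraries assigned to each gene. By the study's methods, the authors split reads by barcode, clipped linkers and primers, and mapped reads with STAR by local alignment. They then dropped reads that matched several places or scored below 20, collapsed duplicates by barcode and assigned reads to genes with HTSeq. The build, the annotation, the versions and the strand setting are not given in the sources used here. Reads on no gene (9.54% to 20.2%) and ambiguous reads (0.568% to 1.93%) were left out of totals and tests. Names matched Ensembl release 115 for 25717 of 26709 genes, and coordinates come from that annotation.

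The counts of FBF-1 and FBF-2 were added to make 3 combined replicates for each gender. The robust quasi-likelihood test of edgeR 4.0.16 was used, with R 4.3.3 and limma 3.58.1. It covered every RNA that averaged 20 counts or more in the FBF replicates (5 in the comparison of controls), with Benjamini-Hochberg adjustment over them. Calls needed more than 2-fold and an adjusted p under 0.01 (the interaction had no fold minimum). Library size scaled FBF against control, TMM the genders, and the total without 730 rRNA, tRNA and mitochondrial genes the interaction. Calls on lists used the same fits. SEs are the log2 fold change over the root of F. Levels, shares and intervals came from Python 3.11.15 (pandas 2.3.3, numpy 2.4.6, scipy 1.17.1), and figures from matplotlib 3.10.9. With 3 replicates against 3, permuting whole libraries gives no p below 0.1.

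In simulated libraries, where 200 RNAs differed by 2 log2 units, the tests recovered 64.5% against the spermatogenic controls (8469 genes), 83.5% against the oogenic controls (6036 genes), 100% between genders with FBF (7275 genes), 94.5% between controls (3285 genes) and 61% for the interaction (7134 genes), with at most 2 false calls. All other RNAs shared a common mean profile there, without the shift of the median seen between FBF and control. Smaller differences were not simulated.

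Members and gene lists were chosen with earlier results of these data known. All 6 members were named, with the 10 genes of highest correlation, the yolk genes, and from each other list the member highest in the controls and any called against most of its list. The genes elt-2, ftn-1, lipl-4, the called intestinal and muscle genes, the intestinal genes with higher values, and the multi-copy families were named after their values were seen. Alternatives were TMM, other totals, DESeq2 1.42.0, no count minimum, an adjusted p under 0.05 with no fold minimum, single-protein or separate libraries, a replicate block and each replicate left out. Controls of the other gender, separate libraries with the block and separate libraries without the smallest were added after the data were seen. Replicates differed by more than sampling noise.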

Additional observations from a re-analysis of the deposited data

Results flagged for a closer look

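The FBF to control ratio differed between the germline genders for vit-3 by 1.65 on the log2 scale and for vit-4 by 1.43, by the antibody by gender term of edgeR (adjusted p = 5.3e-08 and 9.6e-06). In the 3 spermatogenic controls, which were alone in lane 3, vit-3 was at 0.0826 to 0.114 and vit-4 at 0.0687 to 0.119 of vit-6 per exon base, and both were higher in all 15 other libraries. Lane and group cannot be told apart, and whether reads that match several places were handled alike in all lanes is not given in the sources used here.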

How the results depend on the processing

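In spermatogenic germlines 2 vitellogenins were called against the controls, both lower. With totals without rRNA, tRNA and mitochondrial genes 3 were called, with FBF-1 libraries only 1, and 1 to 2 when each replicate was left out. At an adjusted p under 0.05 with no fold minimum all 6 passed, vit-3 and vit-4 higher and the others lower. At an unadjusted p under 0.05, 3422 of the 8269 RNAs tested were higher and 1008 lower. In oogenic germlines 0 were called, 6 under TMM, totals without rRNA, tRNA and mitochondrial genes, DESeq2 or the threshold without a fold minimum, 3 with controls of the other gender, and 0 in each fit without one replicate. RNAs called lower there rose from 109 to 816, 636 and 804 under those 3 scalings, and in spermatogenic germlines from 478 to 804, 860 and 882. Between genders with FBF the threshold without a fold minimum gave 3 in place of 0, vit-3, vit-4 and vit-5, all lower in spermatogenic germlines. In the controls it gave 5 in place of 2, with vit-6 (0.40) higher and the others lower. At an unadjusted p under 0.05, 1491 of 7501 RNAs tested were lower and 1577 higher with FBF. In the controls 468 of 3137 were lower and 449 higher. What made the calls change was not tested.

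Directions reversed for vit-2 (0.056) and vit-6 (0.050) between genders with FBF under library-size scaling. They also reversed for vit-3 and vit-4 with controls of the other gender (−1.02 and −1.03 in spermatogenic, 1.03 and 0.86 in oogenic germlines), which also took vit-2 (−0.58) and vit-6 (−0.56) under the fold minimum in spermatogenic germlines.

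The summed share moved to 1.11% and 1.38% with FBF and to 2.66% and 3.41% in the controls (spermatogenic and oogenic) without rRNA, tRNA and mitochondrial genes, and in spermatogenic germlines to 1.09% in FBF-1 libraries alone and 0.790% in FBF-2 libraries alone.

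Same-numbered replicates did not deviate together (correlations −0.13 to 0.15), so numbers do not pair samples. With the replicate block 2 were called in spermatogenic and 0 in oogenic germlines, 0 between genders with FBF, 2 in the controls and 2 for the interaction. With separate libraries and the replicate block the interaction called 1, and vit-4 (1.42, adjusted p = 0.011) was lost.

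The spermatogenic controls limit the precision of vit-3 and vit-4, with 45 to 93 counts each library for vit-3 and 47 to 73 for vit-4.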
